A study of Mus musculus with 7 samples.

Results

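A set of 10 genes of the mouse cerebellum was examined transcript by transcript: Yipf2, Slc35c2, Nbr1, Ercc2, Zfp523, Senp2, Ttc3, Ndufaf1, Kifc3 and Adgrl3. They are 10 of the 55450 genes measured, and they hold 160 of the 141767 annotated transcripts. The genes were picked because some of their transcripts stood apart by genotype in these same libraries while the gene totals moved little, so their shares and totals are given here as a description with no test. The question is which transcript of each gene takes up, or gives up, share.

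The libraries came from whole cerebella of C57BL/6 mice at postnatal day 15, with 3 wild-type (WT) libraries and 4 libraries of L3mbtl3 KO/+ mice, which carry a knockout and a wild-type allele of the chromatin reader gene L3mbtl3. Polyadenylated RNA with an integrity number of at least 7 was made into directional libraries, and library totals ran from 29248360 expected counts in KO/+ replicate 4 to 43761792 in WT replicate 3. The design counts 4 KO/+ mice but only the number of WT cerebella, and it names no litters, so the spread between libraries may be partly technical. Neither a treatment nor a further allele is named, and the knockout is not said to be limited to any cell type.

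L3mbtl3 itself stood at 24.2 ± 2.25 CPM (counts scaled to library size; SD, n = 3) in WT and 20.6 ± 2.55 CPM (SD, n = 4) in the KO/+ libraries, and the genotypes overlapped (a log2 fold change of -0.23, SE 0.12; edgeR adjusted p = 0.957). Which part of the gene was deleted is not given, so this level does not check the genotype labels. Markers of granule neurons, Purkinje cells, Bergmann glia, oligodendrocytes, microglia and vessels were all detected. Markers of dividing granule neuron progenitors (Mki67, Top2a, Atoh1 and Mcm4) summed to 142 to 424 CPM in WT and 145 to 368 CPM in the KO/+ libraries, and were lowest in WT replicate 3 and KO/+ replicates 1 and 2. The 3 markers of oligodendrocyte precursors (Pdgfra, Cspg4 and Gpr17) summed to 239 to 273 CPM in WT and 136 to 222 CPM in the KO/+ libraries, and the sum was lower in every KO/+ library. Taken singly, only Gpr17, the largest part of the sum, was lower in every KO/+ library, while Pdgfra and Cspg4 overlapped between genotypes. Choroid plexus markers ran from 3.78 to 968 CPM in WT and from 5.04 to 1376 CPM in the KO/+ libraries. The part of these differences in the transcript shares below was not tested, and in whole tissue fewer cells of a type and less RNA per cell cannot be told apart.

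Most multi-exon genes give more than 1 messenger RNA, through alternative transcription starts, skipped exons, alternative splice sites and alternative 3′ ends. A skipped coding exon whose length is a multiple of 3 removes amino acids and leaves the reading frame intact, whereas other lengths shift the frame and can bring in an early stop codon. Transcripts with such a stop are often degraded by nonsense-mediated decay, a quality control pathway that acts during translation. A change in the 5′ untranslated region that keeps the same start codon leaves the protein as it is, and can alter how well the messenger is translated.

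The sequences below lie at 4 exons kept in some transcripts and skipped in others, though the Ercc2 exon did not itself separate the genotypes. They are shown 5′ to 3′ along the gene's strand from the GENCODE M21 transcripts (GRCm38), with the exon in capitals and 15 coding bases of each neighbouring exon in lower case, and where an exon is left out the flanks meet. For Yipf2 the capitals are the 31 coding bases of a 61-base exon at chr9:21592528-21592588 on the minus strand, starting at the initiation codon. Yipf2-204 splices over that exon and its sequence there is untranslated.
Yipf2-202: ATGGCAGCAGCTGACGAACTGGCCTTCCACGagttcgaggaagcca
The Ercc2 exon is at chr7:19384099-19384161 on the plus strand, has 63 bases and removes 21 codons in frame when it is skipped.
Ercc2-201: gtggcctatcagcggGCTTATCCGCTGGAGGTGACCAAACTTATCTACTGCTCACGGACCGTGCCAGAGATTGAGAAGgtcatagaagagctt
Ercc2-202: gtggcctatcagcgggtcatagaagagctt
In Nbr1 the exon is at chr11:101577194-101577251 on the plus strand and has 58 bases, which is not a multiple of 3.
Nbr1-206: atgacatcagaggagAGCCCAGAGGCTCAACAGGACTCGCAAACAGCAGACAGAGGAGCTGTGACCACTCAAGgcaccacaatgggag
Nbr1-208: atgacatcagaggaggcaccacaatgggag
The Senp2 exon is at chr16:22011494-22011552 on the plus strand and has 59 bases, again not a multiple of 3.
Senp2-201: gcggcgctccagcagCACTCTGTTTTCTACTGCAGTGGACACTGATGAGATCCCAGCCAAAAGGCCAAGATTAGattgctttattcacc
Senp2-205: gcggcgctccagcagattgctttattcacc

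Across the 10 genes the share of a transcript is its isoform percentage, the percent of the gene's transcripts that RSEM, the program used by the authors, assigned to it. The 160 transcripts comprised 91 annotated as protein coding, 31 retained introns, 22 targets of nonsense-mediated decay, 15 processed transcripts and 1 other RNA. Of them 25 were listed at 0 in every library, 91 passed the filter on low counts and 68 had a mean of at least 1 TPM, a level scaled to transcript length and library size. Of these 68, the shares of 61 overlapped between genotypes, with differences from -5.24 to 4.95 percentage points, 38 of them within 1 point of 0. Of the 91 that passed, 7 had a share higher in every KO/+ than in every WT library and 7 a lower one. Over all 41558 transcripts past the filter in genes with at least 2 transcripts these shares were 2.25% higher and 2.24% lower, and nothing is read from the members' counts because they were chosen on this contrast. Transcript usage, tested with edgeR's diffSpliceDGE, was called in 53 of 10105 genes (0.524%), and the 10 genes are all among them by their choice. On a quasi-likelihood fit the same test called 18 genes (0.178%). Of the 10 genes 5 were among these (Senp2, Ttc3, Ercc2, Ndufaf1 and Nbr1), while Yipf2, Slc35c2, Zfp523, Kifc3 and Adgrl3 were not. Nothing is read from this number either, the genes being chosen on the same contrast. Gene totals were called in 0 of 16813 genes and transcript levels in 0 of 44375 transcripts by edgeR's quasi-likelihood test, with 530 genes (3.15%) and 1201 transcripts (2.71%) at an unadjusted p under 0.05. DESeq2 called 0 genes and 46 transcripts.

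The transcript that led each gene was not the one that stood apart. For each of the 10 genes the transcript with the highest mean level overlapped between the genotypes in its share, and 9 of these led their gene in all 7 libraries, the exception being Ndufaf1. In Slc35c2, Senp2, Ercc2, Ndufaf1 and Zfp523 the leading transcript nevertheless had the largest gain or loss of mean share. Of the 14 transcripts that stood apart, 7 had a mean below 1 TPM. In each gene the transcript whose mean share was most higher and the one most lower in KO/+ were taken as its switch pair. Both transcripts of the pair stood apart in 2 genes (Yipf2 and Nbr1), only the gaining one in 4 (Slc35c2, Ercc2, Zfp523 and Kifc3), only the losing one in 3 (Senp2, Ttc3 and Ndufaf1) and neither in 1 (Adgrl3). A reciprocal pair of at least 1 mean TPM that stood apart was found in 215 of 8298 genes (2.59%).

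Yipf2 showed the widest exchange of the 10 genes. It encodes a membrane protein of the Golgi from the Yip family, whose members take part in vesicle traffic between the endoplasmic reticulum and the Golgi, and lies at chr9:21588682-21592828 on the minus strand. Yipf2-202 made up 14.5%, 13.2% and 7.33% of the gene's transcripts in WT replicates 1 to 3, and 33.2%, 29.1%, 42.5% and 32.7% in KO/+ replicates 1 to 4. Yipf2-204 made up 19.4%, 21.5% and 24.4% in WT and 3.17%, 9.37%, 2.14% and 0% in the KO/+ libraries. Every KO/+ library was above every WT library for Yipf2-202 and below for Yipf2-204, so that neither transcript overlapped between genotypes. The means were 11.7 ± 3.80% and 34.4 ± 5.70% for Yipf2-202 and 21.8 ± 2.503% and 3.67 ± 4.02% for Yipf2-204 (SD, n = 3 and 4).

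The summed share of Yipf2-202 and Yipf2-204 was 33.5 ± 1.53% in WT and 38.0 ± 4.98% in KO/+ and overlapped. These are the transcripts from which an intron in the 3′ untranslated region is spliced out, and both remaining transcripts keep that intron. Yipf2-201, which led the gene, stood at 51.5 ± 2.08% and 50.3 ± 3.38%, and Yipf2-203 at 15.0 ± 1.15% and 11.6 ± 2.28%, both with overlap. Yipf2-201, Yipf2-202 and Yipf2-203 share 1 reading frame of 936 bases. Yipf2-204 lacks the exon with the initiation codon shown above, and its annotated coding part is 366 bases, from a later start to the same stop codon. Only Yipf2-204 splices over these 61 bases, so the share that holds them follows from its own. The 61 bases were held by 80.6%, 78.5% and 75.6% of transcripts in WT and by 96.8%, 90.6%, 97.9% and 100% in the KO/+ libraries. This was higher in every KO/+ library. The transcript counts behind this were 124 to 183 for Yipf2-204 in WT and 0 to 68.8 in the KO/+ libraries, and 55.4 to 93.4 for Yipf2-202 in WT and 161 to 261 in the KO/+ libraries.

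**Figure D1:**
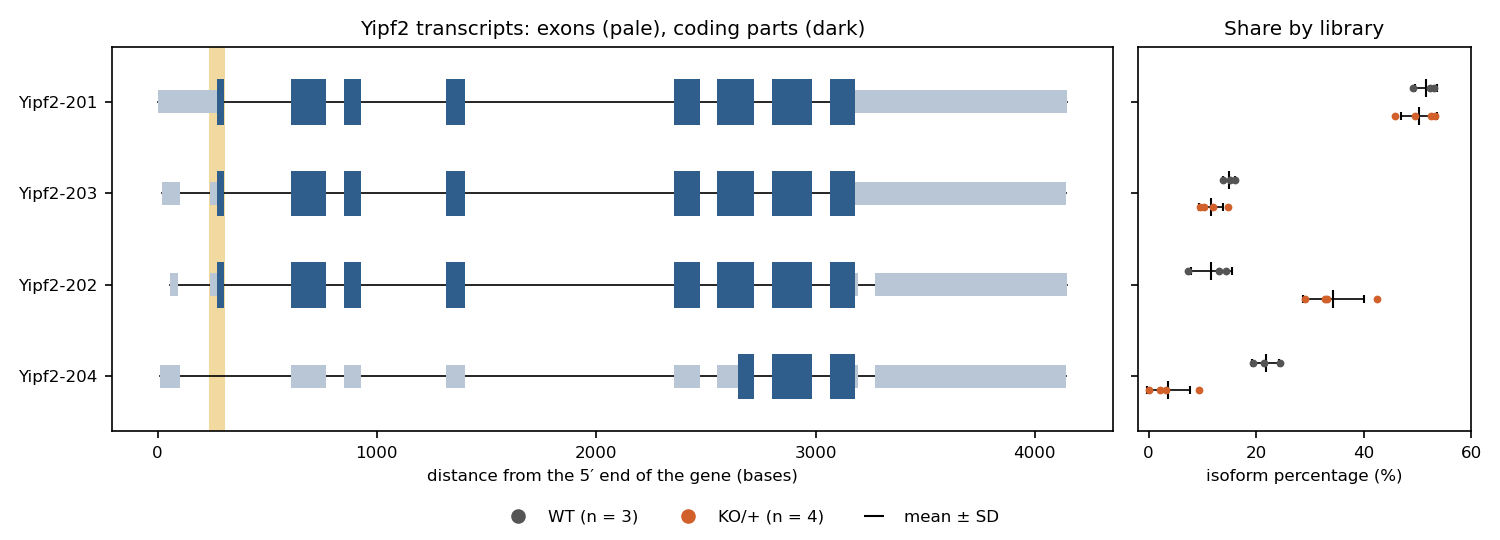
Left, the 4 annotated Yipf2 transcripts along the gene, with distance from its 5′ end in bases on the x axis, exons as pale boxes, coding parts as taller dark boxes and the 61-base exon shaded. Right, the isoform percentage of each transcript, with WT (grey) and KO/+ (orange) libraries as points and the mean and SD in black. Yipf2-202 (11.7% and 34.4%) and Yipf2-204 (21.8% and 3.67%) do not overlap between genotypes, and Yipf2-201 and Yipf2-203 do.

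The total of Yipf2 was 18.7, 17.3 and 19.5 CPM in WT and 23.9, 20.9, 19.7 and 18.4 CPM in the KO/+ libraries. The genotypes overlapped through KO/+ replicate 4, and the log2 fold change was 0.16 (SE 0.11), or 0.09 without KO/+ replicate 1 and 0.11 without WT replicate 2. Carm1 and Timm29 overlap Yipf2 on the opposite strand, and the strand setting of the counting is not given in the sources used here. Of 7 other Yip family genes tested, 6 had positive and 1 a negative log2 fold change, with 0 called and a median of 0.10, against -0.005 over all genes. Yif1b was at 35.5 ± 3.67 CPM in WT against 40.2 ± 3.20 CPM in KO/+ (edgeR adjusted p = 0.957), and Yipf5 at 51.3 ± 0.435 CPM and 55.2 ± 2.13 CPM (adjusted p = 0.957).

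Slc35c2, a Golgi gene whose product is related to the GDP-fucose transporter and favours the fucosylation of Notch, differed in a transcript whose coding exons are those of its leading transcript. The gene lies at chr2:165276554-165287869 on the minus strand. Slc35c2-203 was listed at 0 in the 3 WT libraries, and at 3.33%, 2.5%, 1.86% and 2.67% in the KO/+ libraries, from 34.5 to 81.8 counts. Every KO/+ library was thus above every WT library, where 3 counts, the limit that a count of 0 allows, are at most 0.160% of the gene's counts. That limit covers counting error only, here and for the other genes.

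The leading transcript Slc35c2-204 had the largest loss of mean share, with 68.0%, 72.5% and 64.5% in WT and 68.4%, 64.6%, 62.7% and 65.9% in the KO/+ libraries. The genotypes overlapped, and the difference of -2.92 percentage points became -0.85 without WT replicate 2 and -4.84 without WT replicate 3. Slc35c2-203 differs from Slc35c2-202 only by 65 bases of the 5′ untranslated region, where it uses a splice acceptor further downstream. Slc35c2-202 was at 0%, 5.36% and 4.87% in WT and 0%, 2.30%, 7.10% and 0% in the KO/+ libraries, with zeros in either genotype. The sum of Slc35c2-202 and Slc35c2-203 overlapped, at 3.41 ± 2.96% and 4.94 ± 2.82%. With all 4 transcripts of the same coding exons summed, the difference was -2.24 percentage points.

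The total of Slc35c2 was 54.3 ± 3.20 CPM in WT against 56.1 ± 6.15 CPM in the KO/+ libraries and overlapped (a log2 fold change of 0.05, SE 0.10). Its sign was negative without WT replicate 2 (-0.008) or KO/+ replicate 1 (-0.007). Among 12 genes of Notch O-fucosylation and nucleotide sugar supply, 7 were positive and 5 negative (median 0.01), with 0 called and 1 at an unadjusted p under 0.05. That gene was the Golgi GDP-fucose transporter Slc35c1, at 23.2 ± 1.59 CPM in WT against 20.0 ± 1.54 CPM in KO/+ (a log2 fold change of -0.22, SE 0.09, edgeR adjusted p = 0.957). Fpgt, of GDP-fucose salvage, was at 23.2 ± 2.07 CPM and 25.6 ± 3.26 CPM (adjusted p = 0.957 by edgeR).

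Nbr1 moved share towards a transcript annotated as a target of nonsense-mediated decay. Its product is a selective autophagy receptor that brings ubiquitinated cargo to the forming autophagosome, and the gene lies at chr11:101552149-101581951 on the plus strand. Nbr1-208, which lacks the 58-base exon shown above, made up 2.57%, 4.20% and 3.82% of transcripts in WT and 7.33%, 6.20%, 6.95% and 4.67% in the KO/+ libraries. Nbr1-202 made up 5.65%, 7.21% and 7.17% in WT and 2.90%, 3.19%, 3.86% and 4.35% in the KO/+ libraries. Neither overlapped, with Nbr1-208 higher and Nbr1-202 lower in every KO/+ library, and the nearest values belonged to KO/+ replicate 4 in both cases. The means were 3.53 ± 0.853% and 6.29 ± 1.18% for Nbr1-208, and 6.68 ± 0.889% and 3.58 ± 0.655% for Nbr1-202 (SD, n = 3 and 4).

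These are 2 different parts of the gene. Nbr1-202 has 204 untranslated bases of its own towards the 5′ end of the gene, at chr11:101552654-101552857, and no intron of its own. It has the same coding exons as Nbr1-203 and Nbr1-207. Nbr1-208 differs at the exon near the 3′ end of the coding sequence. Their sum overlapped, at 10.2 ± 1.73% in WT and 9.86 ± 0.810% in the KO/+ libraries. The 58-base exon was held by 97.2%, 95.5% and 95.9% of transcripts that reach it in WT and by 92.1%, 93.4%, 92.1% and 94.9% in the KO/+ libraries. This was lower in every KO/+ library. Only Nbr1-208 splices over it, so these values follow from its share.

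Of the transcript types of the 10 genes, those of Nbr1 were the only ones whose summed shares did not overlap. Its decay targets summed to 3.53 ± 0.852% in WT and 6.29 ± 1.18% in the KO/+ libraries, and were higher in every KO/+ library. Its protein-coding transcripts summed to 88.7%, 90.3% and 90.1% in WT and to 85.3%, 87.9%, 81.5% and 86.4% in the KO/+ libraries, lower in every KO/+ library. Nbr1-208 accounts for nearly all of the first sum. The leading Nbr1-206 stood at 45.8 ± 1.51% and 45.4 ± 1.31%, and Nbr1-217 at 22.8 ± 0.693% and 23.1 ± 2.34%, both with overlap.

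Nbr1 was the most deeply counted of the 10 genes after Ttc3, with 330 to 509 counts for Nbr1-208 in WT and 434 to 957 in the KO/+ libraries. Its total was 278 ± 8.45 CPM in WT against 293 ± 27.3 CPM in KO/+ and overlapped (a log2 fold change of 0.07, SE 0.09, or 0.02 without KO/+ replicate 1 and 0.05 without WT replicate 2). Of 11 other autophagy receptors and ATG8 proteins, 7 were positive and 4 negative (median 0.05), with 0 called. The receptor gene Tax1bp1 was at 188 ± 7.99 CPM in WT against 209 ± 22.2 CPM in KO/+, and the scaffold gene Wdfy3 at 159.6 ± 5.37 CPM and 133.0 ± 24.7 CPM, each with an edgeR adjusted p of 0.957. Of 15 genes of nonsense-mediated decay 7 were positive and 8 negative (median -0.02) with 0 called. Upf3a, which encodes a decay factor of the exon junction, had the smallest unadjusted p of them, with 45.8 ± 3.31 CPM in WT against 52.5 ± 2.44 CPM in KO/+ (edgeR adjusted p = 0.957).

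**Figure D2:**
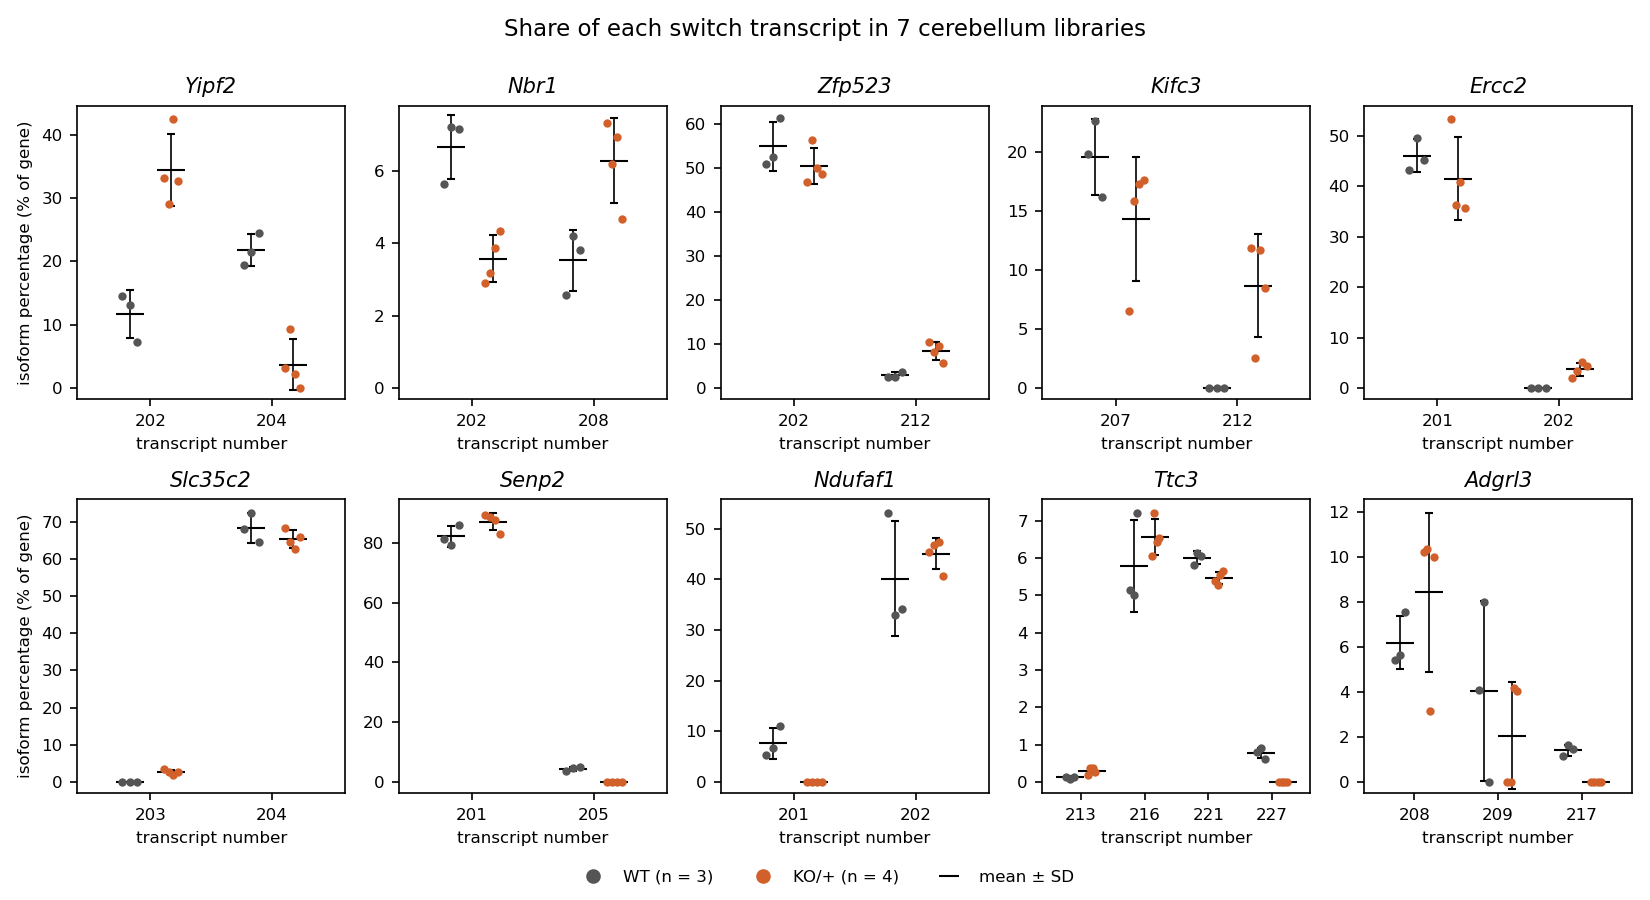
Isoform percentage (y axis) of the switch pair of each gene and of any other transcript whose genotypes did not overlap, named by transcript number on the x axis. Points are WT (grey, n = 3) and KO/+ (orange, n = 4) libraries with mean and SD in black, and each panel has its own scale. Both transcripts separate in Yipf2 and Nbr1, and 7 transcripts of other genes lie at 0 in every library of 1 genotype.

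Of the 14 transcripts that stood apart, 7 were at 0 in every library of 1 genotype and above 0 in every library of the other. Slc35c2-203, Ercc2-202 and Kifc3-212 were at 0 in WT, and Adgrl3-217, Senp2-205, Ttc3-227 and Ndufaf1-201 in the KO/+ libraries. Of the 41558 transcripts past the filter in genes with at least 2 transcripts, 14 (0.0337%) were at 0 in WT and above 0 in the KO/+ libraries in this way, and 8 (0.0193%) the reverse. Such transcripts passed the filter only through the genotype in which they were above 0, and nothing is read from the members' number. The counts of the 7 ranged from 25.6 to 119 where they were above 0, and no share among them exceeded 11.9%. RSEM divides reads that fit several transcripts by likelihood and can set a transcript to 0 although others of the gene cover nearly all of its bases. At most 10.5% of the 50-base windows of any of the 14 transcripts that stood apart are found in no other annotated transcript, and for 3 of them (Ndufaf1-201, Ttc3-213 and Ttc3-221) there was no such window. Zeros also varied within a genotype, with 12 of the 91 transcripts past the filter at 0 in some and above 0 in other libraries of the same genotype, against 7.89% of the 41558. Most of these were transcripts of Adgrl3, the rest were of Slc35c2 and Yipf2, and the other genes had none. The part of RSEM's assignment of reads in the zeros was not tested.

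Ercc2 encodes XPD, the helicase of the transcription and repair complex TFIIH, and lies at chr7:19382010-19395694 on the plus strand. Ercc2-202, which lacks the 63-base exon shown above, was at 0 in the 3 WT libraries and at 2.05%, 3.35%, 5.07% and 4.32% in the KO/+ libraries, from 25.6 to 76.7 counts. The leading Ercc2-201 was at 43.2%, 49.6% and 45.2% in WT and 53.3%, 36.2%, 40.8% and 35.7% in the KO/+ libraries, overlapping because KO/+ replicate 1 was the highest of all. Ercc2-201 was also lower in TPM in every KO/+ library, at 9.53 to 10.7 TPM in WT and 7.26 to 9.46 TPM in KO/+. Its difference in share of -4.51 percentage points moved to -8.44 without KO/+ replicate 1 and to between -2.71 and -2.59 without WT replicate 2, KO/+ replicate 2 or KO/+ replicate 4.

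The exon itself did not separate the genotypes. Ercc2-203, at 34.5 ± 3.34% in WT and 31.6 ± 2.54% in KO/+, splices over the same 63 bases within a longer gap, so that Ercc2-202 is the smaller part of what skips them. The exon was held by 56.6%, 62.9% and 63.5% of transcripts that span it in WT and by 65.7%, 57.3%, 57.9% and 52.9% in the KO/+ libraries, with the highest and the lowest value both in KO/+. Skipping it as Ercc2-202 does shortens the coding sequence from 2280 to 2217 bases in frame.

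The total of Ercc2 was 35.3 ± 3.52 CPM in WT against 32.6 ± 3.78 CPM in the KO/+ libraries and overlapped (a log2 fold change of -0.11, SE 0.11). It was -0.04 without WT replicate 1, -0.07 without KO/+ replicate 1, -0.18 without WT replicate 3 and -0.20 without KO/+ replicate 4. Klc3 overlaps the gene on the opposite strand. Of the other 9 TFIIH subunits, 8 were positive and 1 negative (median 0.06), with 0 called and 1 at an unadjusted p under 0.05. That was the core subunit gene Gtf2h2, at 18.3 ± 0.672 CPM in WT against 21.4 ± 1.51 CPM in KO/+ (a log2 fold change of 0.22, SE 0.09, edgeR adjusted p = 0.957). Gtf2h1, also of the core, was at 64.8 ± 2.76 CPM and 70.5 ± 4.65 CPM (adjusted p = 0.957 by edgeR).

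Zfp523, the mouse counterpart of the zinc finger transcription factor gene ZNF76, gained share in a transcript with another 5′ end. It lies at chr17:28177129-28205886 on the plus strand. Zfp523-212 stood at 2.54%, 2.51% and 3.75% in WT and at 10.4%, 8.13%, 9.51% and 5.63% in the KO/+ libraries, higher in every KO/+ library. Its counts were 62.4 to 98.8 in WT and 123 to 246 in the KO/+ libraries. The leading Zfp523-202 had the largest loss, at 51.0%, 52.5% and 61.3% in WT and 46.8%, 56.3%, 49.97% and 48.7% in the KO/+ libraries. The genotypes overlapped, and the difference of -4.49 percentage points was -1.32 without WT replicate 3.

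Zfp523-212 has a 5′-most exon of its own, 24 untranslated bases at chr17:28186187-28186210, and shares every coding base with Zfp523-201 and Zfp523-202. The summed share of these 3 transcripts was 1.59 percentage points higher in the KO/+ libraries, and Zfp523-202 and Zfp523-212 together overlapped at 57.9 ± 6.25% and 58.9 ± 4.28%. The total was 67.1 ± 3.63 CPM in WT against 69.2 ± 3.07 CPM in KO/+ (a log2 fold change of 0.04, SE 0.07, or -0.02 by limma-trend on log2(TPM + 1)), and was 0.002 without WT replicate 3 or KO/+ replicate 4 and 0.07 without WT replicate 1. Zfp143, the mouse relative of the same zinc finger family, was at 20.7 ± 3.83 CPM and 20.3 ± 1.28 CPM (edgeR adjusted p = 0.985).

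Senp2, a protease that matures SUMO and removes it from proteins, lost a minor transcript annotated as a decay target. It lies at chr16:22009484-22049269 on the plus strand. Senp2-205 was at 3.63%, 4.54% and 4.85% in WT, from 56.0 to 104.9 counts, and at 0 in the 4 KO/+ libraries, where 3 counts are at most 0.153% of the gene's counts. It lacks the 59-base exon shown above, and its annotated coding part is 190 bases, against 1764 in Senp2-201. The exon was held by 95.2 ± 0.623% of transcripts that span it in WT and by all of them in the KO/+ libraries. Only Senp2-205 splices over it, so these values follow from its share and are no separate measure.

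Senp2-201, the leading transcript, had the largest gain, at 81.3%, 79.5% and 86.2% in WT and 89.6%, 88.7%, 87.6% and 83.0% in the KO/+ libraries. The genotypes overlapped, with WT replicate 3 above KO/+ replicate 4. As a share of counts the difference of Senp2-201 was 3.17 instead of 4.90 percentage points and that of Senp2-205 was -2.83 instead of -4.34. With Senp2-205 added, Senp2-201 stood at 86.7 ± 3.83% and 87.2 ± 2.96%. All 4 decay targets of the gene summed to 15.8 ± 3.92% in WT and 11.5 ± 2.88% in the KO/+ libraries and overlapped. They were lowest in WT replicate 3 among WT (11.8%) and highest in KO/+ replicate 4 among KO/+ libraries (15.7%).

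The total of Senp2 was 67.4 ± 9.35 CPM in WT against 67.3 ± 2.88 CPM in the KO/+ libraries (a log2 fold change of -0.001, SE 0.10). WT replicate 3 was the highest library at 78.2 CPM, and without it the log2 fold change was 0.12. It was -0.07 without WT replicate 1, -0.06 without WT replicate 2, and between -0.03 and 0.02 without any 1 KO/+ library. Of 15 other SUMO pathway genes 9 were positive and 6 negative (median 0.02), with 0 called, Sumo3 being at 111 ± 3.58 CPM in WT against 119 ± 5.84 CPM in KO/+ (edgeR adjusted p = 0.957).

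**Figure D3:**
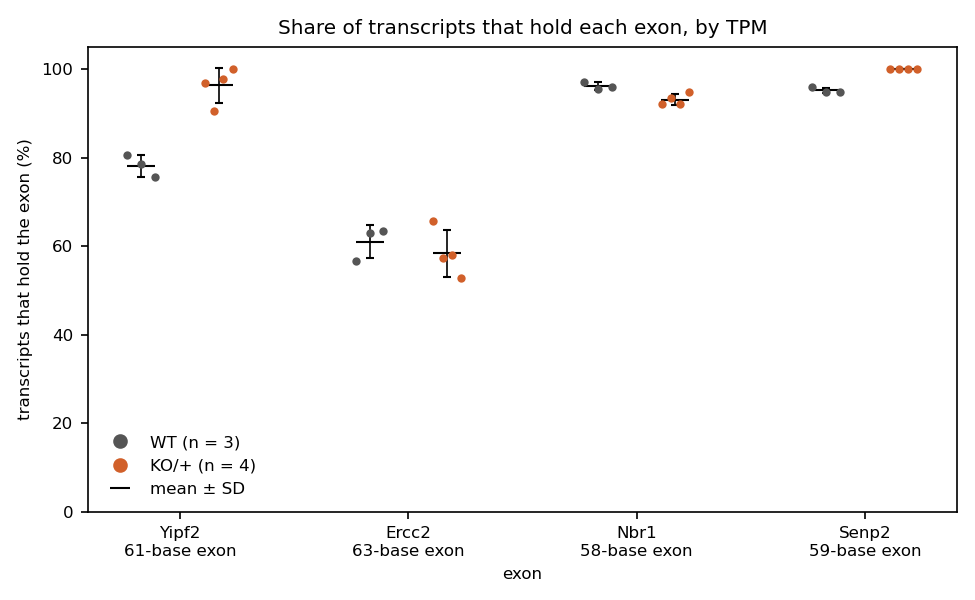
Percent of a gene's transcripts, weighted by TPM, that hold the named exon among those that hold it or splice over it (y axis), for 4 exons (x axis). Points are WT (grey, n = 3) and KO/+ (orange, n = 4) libraries, with mean and SD in black. Only 1 annotated transcript skips the exon in Yipf2, Nbr1 and Senp2, so the values of these genes follow from its share. The Yipf2 exon (78.2% and 96.3%) and the Senp2 exon (95.2% and 100%) are higher and the Nbr1 exon (96.2% and 93.1%) lower in every KO/+ library, and the Ercc2 exon (61.0% and 58.4%) overlaps.

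Ttc3 encodes an E3 ubiquitin ligase that marks phosphorylated AKT for degradation, and was the most abundant of the 10 genes, at chr16:94370618-94469343 on the plus strand. Its differences were the smallest, all below 1 percentage point. Ttc3-227, a short decay target of 926 bases, was at 0.80%, 0.90% and 0.62% in WT and at 0 in the 4 KO/+ libraries. That is 38.8 to 41.1 counts in WT, of 29980 to 39199 counts for the gene, and by counts in place of TPM the difference was -0.12 percentage points instead of -0.77. It has 44 bases of its own at chr16:94459718-94459761 and an intron that no other transcript has.

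Ttc3-216 had the largest gain of share, at 5.15%, 5.01% and 7.20% in WT and 6.07%, 7.22%, 6.44% and 6.55% in the KO/+ libraries, with overlap. Its difference of 0.78 percentage points was 0.47, 0.40 and 1.49 without WT replicates 1, 2 and 3, and 0.23 as a share of counts. A pair of transcripts outside the switch pair, chosen after their values were seen, also stood apart. Ttc3-221 was lower in the KO/+ libraries (6.01 ± 0.174% and 5.47 ± 0.164%, a difference of -0.54 percentage points, or -0.28 as a share of counts), and Ttc3-213, below 1 mean TPM, was higher (0.117 ± 0.0321% and 0.290 ± 0.0913%). Summed with Ttc3-214 and Ttc3-225, which share its coding exons, Ttc3-213 had a difference of -0.04 percentage points. Ttc3-230 led the gene in every library at 48.5 ± 2.29% in WT and 48.5 ± 1.15% in KO/+.

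The total of Ttc3 was 855 ± 54.3 CPM in WT against 844 ± 54.9 CPM in the KO/+ libraries (a log2 fold change of -0.02, SE 0.09), and leaving out any 1 library gave values from -0.07 (without WT replicate 2) to 0.03 (without WT replicate 3). Pigp overlaps it on the opposite strand. All 3 AKT kinase genes had positive log2 fold changes (median 0.055), with 0 called. Of these, Akt2 was at 236 ± 25.9 CPM in WT against 253 ± 8.56 CPM in KO/+ (edgeR adjusted p = 0.957).

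Ndufaf1 encodes an assembly factor of respiratory complex I and lies at chr2:119655446-119662827 on the minus strand. Ndufaf1-201 was at 5.21%, 6.67% and 11.1% in WT, from 38.4 to 107 counts, and at 0 in the 4 KO/+ libraries, where 3 counts are at most 0.677% of the gene's counts. Ndufaf1-202 gained most, at 53.2%, 33.0% and 34.1% in WT and 45.4%, 46.8%, 47.3% and 40.7% in the KO/+ libraries. It overlapped, WT replicate 1 being the highest library, and its difference of 4.95 percentage points was 11.5, 1.41 and 1.96 without WT replicates 1, 2 and 3.

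Every base of Ndufaf1-201 is also in Ndufaf1-202, which is longer by 27 bases at its ends, 22 at the 5′ end and 5 at the 3′ end, and has the same introns. Ndufaf1-201, Ndufaf1-202 and Ndufaf1-203 together held 86.8 ± 4.38% in WT and 86.2 ± 2.77% in the KO/+ libraries and overlapped. The coding sequence of Ndufaf1-201 is annotated as 990 bases and that of Ndufaf1-202 and Ndufaf1-203 as 984.

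The total of Ndufaf1 was 17.4, 17.2 and 18.4 CPM in WT and 15.7, 17.1, 14.6 and 15.0 CPM in the KO/+ libraries. It was lower in every KO/+ library, but KO/+ replicate 2 (17.134 CPM) lay only just below WT replicate 2 (17.168 CPM). The log2 fold change was -0.18 (SE 0.09). In TPM the genotypes overlapped, with KO/+ replicate 2 at 26.84 TPM and WT replicate 1 at 26.75 TPM. Judged by overlap in CPM, the description of these genes as having steady totals is not met in this gene or in Adgrl3 below. Kifc3 (-0.22) and Yipf2 (0.16), whose totals overlapped, had log2 fold changes of similar size to that of Ndufaf1. Gene totals were lower in every KO/+ library in 1.80% and higher in 2.15% of all genes tested. Of 14 other complex I assembly factors tested, 10 were positive and 4 negative (median 0.05), with 0 called, Tmem126b being at 32.2 ± 3.70 CPM in WT against 37.0 ± 4.29 CPM in KO/+ and Foxred1 at 29.5 ± 1.26 CPM and 31.2 ± 1.80 CPM (edgeR adjusted p = 0.957 for each).

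Kifc3, a kinesin that moves towards microtubule minus ends and is known at adherens junctions, lies at chr8:95099828-95202812 on the minus strand. Kifc3-212 was at 0 in the 3 WT libraries and at 11.9%, 2.54%, 11.7% and 8.50% in the KO/+ libraries, from 25.7 to 103 counts. In WT, 3 counts are at most 0.307% of the gene's counts. The transcript has a 5′-most exon of its own, 114 untranslated bases at chr8:95113229-95113342. It lacks 3 upstream exons of Kifc3-201, and its coding sequence is 2061 bases, against 2472.

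Among the KO/+ libraries Kifc3-212 was lowest in replicate 2, where Kifc3-202 was highest, and in WT replicate 3 both were low. Kifc3-202 was at 16.4%, 13.5% and 3.42% in WT and at 0.31%, 18.3%, 0.60% and 8.0% in the KO/+ libraries, and the sum of both overlapped at 11.1 ± 6.83% and 15.5 ± 4.12%. Kifc3-207 lost most share, at 19.8%, 22.7% and 16.2% in WT and 6.54%, 15.8%, 17.2% and 17.7% in the KO/+ libraries, overlapping through WT replicate 3. Its difference of -5.24 percentage points was -2.65 without KO/+ replicate 1. Kifc3-207 is short, at 711 bases, and rests on 7.85 to 38.7 counts per library. As a share of counts its difference was -0.94 percentage points.

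The retained-intron transcripts of Kifc3 summed to 7.79%, 8.995% and 0% in WT and 1.41%, 1.03%, 8.99% and 5.14% in the KO/+ libraries. They were lowest in WT replicate 3 and KO/+ replicates 1 and 2, the libraries with the lowest sums of progenitor markers, and the part of cell makeup in this was not tested. The gene total was 26.6, 26.4 and 38.0 CPM in WT and 24.4, 30.0, 26.3 and 23.4 CPM in the KO/+ libraries. WT replicate 3 stood above all others, and the log2 fold change of -0.22 (SE 0.15) was -0.03 without it. All 7 genes of C-terminal motor kinesins and their minus-end partners had negative log2 fold changes (median -0.15) with 0 called, and Camsap2, which stabilises minus ends, was at 229.9 ± 3.14 CPM in WT against 210.2 ± 12.5 CPM in KO/+ (edgeR adjusted p = 0.957). Plekha7, which encodes a junction protein, was at 11.5 ± 2.26 CPM and 9.68 ± 1.12 CPM (adjusted p = 0.957 by edgeR).

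Adgrl3, or latrophilin 3, is an adhesion G protein-coupled receptor at synapses that binds FLRT proteins and teneurins of the partner cell, and lies at chr5:81020138-81825133 on the plus strand. It was the 1 gene of the 10 in which neither transcript of the switch pair stood apart. Adgrl3-208 was at 5.43%, 5.62% and 7.53% in WT and 10.2%, 10.4%, 3.14% and 10.0% in the KO/+ libraries, overlapping through KO/+ replicate 3, without which the difference of 2.23 percentage points was 3.99. Adgrl3-209 was at 4.08%, 8.01% and 0% in WT and 0%, 0%, 4.16% and 4.05% in the KO/+ libraries.

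Adgrl3-209 was at 0 in WT replicate 3 and KO/+ replicates 1 and 2, the same libraries that had the lowest sums of progenitor markers, and above 0 in the other 4 libraries. Whether cell makeup has a part in this was not tested. Its difference of -1.98 percentage points was 0.01 without WT replicate 2, -3.99 without WT replicate 3 and -1.29 without KO/+ replicate 1 or 2. No base of Adgrl3-209 lies outside Adgrl3-208, which holds 196 further bases, 27 of them in a coding exon. The sum of both overlapped, at 10.2 ± 3.11% in WT and 10.5 ± 2.77% in the KO/+ libraries.

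Adgrl3-217 stood apart at a lower level and is named after its values were seen. It was at 1.13%, 1.62% and 1.46% in WT, which is 67.7 to 119 counts, and at 0 in the 4 KO/+ libraries, where 3 counts are at most 0.113% of the gene's counts. As a share of counts its difference was -2.26 instead of -1.40 percentage points. It has 198 untranslated bases of its own at its 5′ end, at chr5:81021593-81021790, and no intron of its own. Adgrl3-220 led the gene at 30.5 ± 1.59% in WT and 30.8 ± 3.74% in KO/+ and overlapped.

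The total of Adgrl3 was 92.8, 96.5 and 121.6 CPM in WT and 80.4, 90.8, 88.2 and 89.9 CPM in the KO/+ libraries. It was lower in every KO/+ library, and the log2 fold change of -0.25 (SE 0.11) was -0.12 without WT replicate 3, the highest library. Of 14 other latrophilins and their ligands, 2 were positive and 12 negative (median -0.20), with 0 called and 1 at an unadjusted p under 0.05. That was the teneurin gene Tenm1, at 137 ± 9.71 CPM in WT against 109 ± 19.9 CPM in KO/+ (a log2 fold change of -0.33, SE 0.13, edgeR adjusted p = 0.957). Tenm2 was at 37.2 ± 8.22 CPM and 24.1 ± 9.23 CPM (adjusted p = 0.957).

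**Figure D4:**
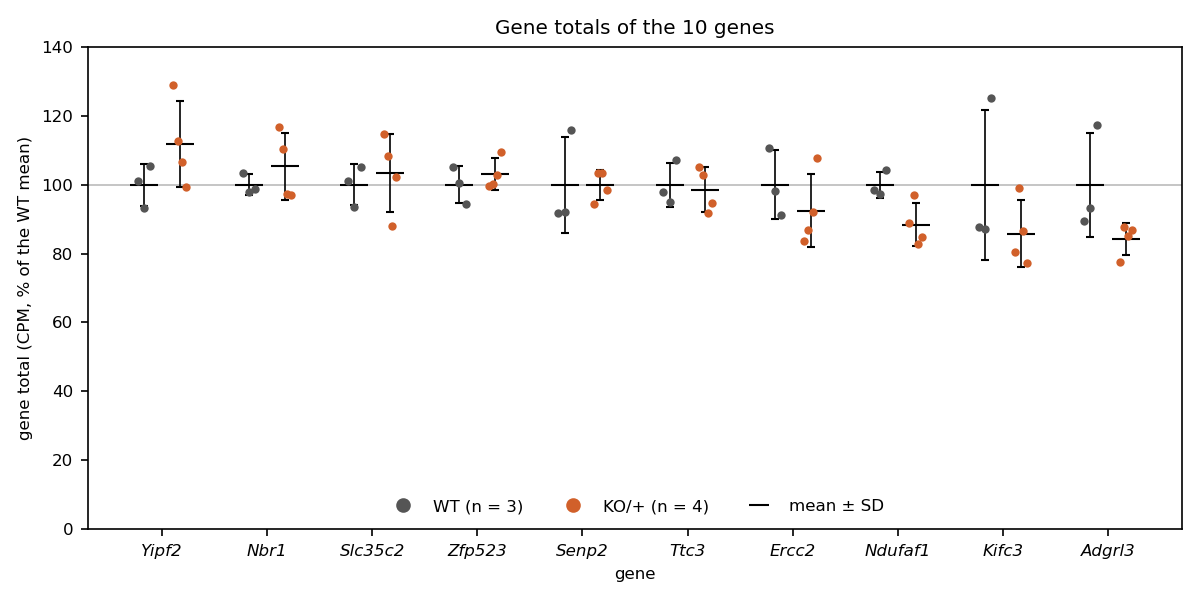
Gene totals in CPM as a percent of the WT mean (y axis, from 0) for the 10 genes (x axis), with WT (grey, n = 3) and KO/+ (orange, n = 4) libraries as points and mean and SD in black. The KO/+ libraries overlap the WT libraries in 8 genes and lie below all of them in Ndufaf1 and Adgrl3, whose KO/+ means are 88.4% and 84.3% of the WT means.

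Totals thus ranged from a log2 fold change of -0.25 for Adgrl3 to 0.16 for Yipf2, with 5 of the 10 within 0.1 of 0. In CPM 8 overlapped between genotypes. Genes that act on transcript choice were read beside them as a list. Of 54 splicing regulators 16 were positive and 38 negative, with 0 called, 0 at an unadjusted p under 0.05 and a median of -0.04. Celf6, a neuronal splicing factor, was at 11.7 ± 3.35 CPM in WT against 9.06 ± 1.05 CPM in KO/+, and the stability factor Elavl1 at 58.9 ± 7.99 CPM and 51.4 ± 6.78 CPM, each with an edgeR adjusted p of 0.957. Of 19 genes of 3′ end processing 7 were positive and 12 negative (median -0.03), with 0 called. Cstf2 was at 110.3 ± 3.22 CPM in WT against 100.2 ± 3.53 CPM in KO/+, and Cpsf3 at 62.5 ± 2.80 CPM and 56.7 ± 3.43 CPM (edgeR adjusted p = 0.957 for each).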

How the data were processed

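Polyadenylated RNA of 7 cerebella libraries (3 WT, 4 KO/+) was analysed. The submitters' processing notes name RSEM 1.3.1, STAR 2.5.2a, Trimmomatic 0.39 and bcl2fastq, and the builds mm10 and GRCm38, while neither the strand setting nor those of the aligner is given in the sources used here. The deposited expected counts, per gene and per transcript, are reads as RSEM apportioned them. The deposited TPM, and the deposited FPKM, which were not used, correct for transcript length and for library size. Isoform percentage is, per the file headers, a deposited value that gives a transcript's TPM as a percent of its gene's TPM. All 141767 transcripts were found in GENCODE M21, the source of names, types, exons and sequences. The tables of the whole series were not used.

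Counts were rounded, passed through filterByExpr and scaled with TMM (factors of 0.9783 to 1.022), and CPM are on that scale. Genes, transcripts and transcript usage were tested with edgeR 4.0.16 (glmQLFTest and diffSpliceDGE), Benjamini-Hochberg adjustment and a threshold of 0.05, in scripts tested on simulated data. Alternatives used DESeq2 1.42.0, limma 3.58.1, other filters and scalings, and left-out libraries. The 10 genes, the lists and the rules were chosen with earlier results of these data known. The text names each switch pair, the transcripts that stood apart, and some but not all of those of at least 1 mean TPM. It also names from each list the 2 genes (or fewer) lowest in unadjusted p, and the 5 other genes with the widest reciprocal pairs. Totals of 29248360 to 43761792 counts set the precision. Some genes that these rules name are not reported here. R 4.3.3 and Python 3.11.15 were used.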

Additional observations from a re-analysis of the deposited data

Results flagged for a closer look

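Over 63 values examined in the 4 KO/+ libraries, 5 had 1 library whose gap to the nearest of the others exceeded Dixon's 95% critical value for 4 samples, where chance gives about 1 in 20. Adgrl3-208 was at 3.14% of its gene in KO/+ replicate 3, with the other 3 between 10.0% and 10.4%. Kifc3-207 was at 6.54% in KO/+ replicate 1, with the others between 15.8% and 17.7%. Of genes outside the 10, Tenm1, the teneurin ligand of latrophilins, was at 138 CPM in KO/+ replicate 4, with the others between 96.3 and 100.3 CPM. Camsap2, of the minus-end partners of Kifc3, was at 229 CPM in KO/+ replicate 4, with the others between 202 and 205 CPM. Fpgt, of the GDP-fucose salvage route, was at 20.7 CPM in KO/+ replicate 4, with the others between 26.6 and 27.6 CPM.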

How the results depend on the processing

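All 10 genes are read from shares that RSEM estimated, and what 29248360 to 43761792 counts per library can resolve is limited for transcripts with few counts of their own. The number of genes called in transcript usage, 53 by diffSpliceDGE, was 104 with no filter, 19 with at least 1 CPM in at least 3 libraries, 0 with limma voom and diffSplice (468 at an unadjusted p under 0.05) and 18 on a quasi-likelihood fit, which was added after the data were seen. Same-numbered WT and KO/+ libraries did not deviate together (correlations 0, -0.57 and -0.05), so the numbers were not taken to pair them. With the replicate number as a block the usage count was 113, and the number of genes called in their total was 1. Left-out libraries gave 50 (without KO/+ replicate 3) to 130 (without WT replicate 3) for usage, 0 to 1 for gene totals and 0 to 2 for transcripts. Transcripts called were 0 in the main test, 3 with no filter, 46 with DESeq2 (27 higher, 19 lower) and 3 with limma-trend. The 215 genes with a reciprocal pair became 436 at 0.1 TPM, 76 at 5 TPM, 33 at 10 percentage points or more (Yipf2 being the 1 of the 10 genes among them) and 399 to 993 with 1 library left out, where fewer samples make separation easier. Summed over transcripts with identical coding exons, the differences of Slc35c2-203 (-2.24 percentage points), Ttc3-213 (-0.0367) and Zfp523-202 (1.59) changed sign, by the construction of the sum, and Zfp523-212 became 1.59. As a share of counts Adgrl3-217 was at -2.26, Senp2-205 at -2.83, Ttc3-221 at -0.28, Ttc3-227 at -0.12 and Ercc2-202 at 5.11 percentage points, transcript length no longer entering. The other 244 of 253 alternative share differences, and all 130 alternative log2 fold changes of gene totals, moved by less than the spread between libraries (1 SD), 8 of these fold changes being of the other sign. For left-out libraries this rule says little. With 3 and 4 libraries, leaving out 1 cannot move a share difference by 1 SD, and can hardly move a gene total so far. Within it, Slc35c2-204 went from -2.92 to -0.85 percentage points without WT replicate 2. Ndufaf1-202 went from 4.95 to 1.41 without WT replicate 2, and the total of Kifc3 from -0.22 to -0.03 without WT replicate 3.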

Other observations

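Of all other genes, 121 had a reciprocal pair that did not overlap and a gene total within 0.1 of 0 on the log2 scale. The 5 named here had the largest smaller-of-the-pair difference in share, chosen for that difference, so the values are a description with no test. Apoa2, an apolipoprotein gene at few TPM in these cerebella, had Apoa2-203 at 3.57%, 0% and 0% in WT and at 100% in all 4 KO/+ libraries, while Apoa2-201 was at 96.4%, 60.9% and 45.7% in WT and at 0 in all 4. Rcan1, a regulator of calcineurin, had Rcan1-202 at 0%, 62.4% and 69.3% in WT and 92.9%, 93.5%, 90.6% and 70.4% in the KO/+ libraries, so that WT replicate 1 stood apart from the other WT libraries. Rcan1-206 was at 91.1%, 27.4% and 21.5% in WT and 0.50%, 0.07%, 0.07% and 16.97% in the KO/+ libraries. Srgn, which encodes the proteoglycan serglycin, had Srgn-205 at 6.60 ± 5.77% in WT and 27.6 ± 14.5% in KO/+ (SD, n = 3 and 4) and Srgn-201 at 76.5 ± 1.16% and 56.6 ± 13.7%. Rfc5, a subunit of the clamp loader of DNA replication, had its coding Rfc5-201 at 48.3 ± 7.74% and 69.5 ± 5.64% and the retained-intron transcript Rfc5-205 at 28.7 ± 6.31% and 9.67 ± 7.72%. Nlrx1, which encodes a mitochondrial NOD-like receptor, had Nlrx1-205 at 24.5 ± 7.54% and 40.0 ± 2.02% and Nlrx1-202 at 74.2 ± 7.02% and 51.2 ± 16.5%. Apart from Rcan1 the gaining transcripts of these genes had mean levels of 1.14 to 7.13 TPM, and Rcan1-202 was at 20.9 TPM.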
